A study of Danio rerio with 9 samples.

Results

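The early regenerate of the zebrafish tail fin was set against the uncut fin, with 6 of the 9 libraries of the series: 3 from fins regrowing at 3 days post amputation (3 dpa) and 3 from intact caudal fins (0 dpa). The libraries were assigned to the groups by their titles alone. The comparison itself was chosen with earlier results of these data known. Both groups came from wild-type zebrafish in a recirculating system, per the labels. The 3 dpa fish had their caudal fin removed, while the intact fins served as controls. Strain, age, sex and the number of fish behind a library are not stated in the sources used here. The p-values therefore reflect the spread between libraries alone, which may be technical. The other 3 libraries, from regenerates at 7 dpa, entered the choice of tested transcripts, the scaling checks and the estimate of the spread. They also gave a check of levels, a test against 3 dpa for named transcripts and a few values for orientation.

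The caudal fin of the zebrafish is a fold of skin over bony rays, with fibroblasts, nerves, vessels and pigment cells inside. After a cut, epidermis closes the wound, cells of the stump lose some of their mature traits and gather as a blastema under the wound epidermis, and outgrowth then rebuilds rays and tissue. The regenerate at 3 dpa therefore holds another mixture of cells than an intact fin, and in bulk RNA fewer cells of a type and less RNA per cell cannot be told apart. The tables cover 3 kinds of RNA. Messenger RNAs (mRNAs) encode proteins, long non-coding RNAs (lncRNAs) do not and often sit at low levels, and circular RNAs (circRNAs) are exons joined back to front into a ring that lacks ends and is therefore slow to decay.

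Of 55393 transcripts in the mRNA table, 4494 in the lncRNA table and 5578 circRNAs, 25001, 1671 and 3213 had values high enough to be tested. None of these IDs (0 in each table) could be paired with a gene symbol, so the tissue could not be checked against its marker genes and transcripts are described by ID, level and direction. An ENSDART ID belongs to an annotated transcript and a TCONS ID to an assembled one. The mRNA and lncRNA values are a normalised signal of unknown depth. Each circRNA value is a share of all circRNA reads in its library, which numbered 12070 to 13443 at 3 dpa and 14631 to 16262 in intact fin. Across tested mRNAs the log2 values of 2 libraries correlated at r = 0.962 to 0.967 within 3 dpa and 0.948 to 0.952 within intact fin, and at 0.813 to 0.848 between the groups. For lncRNAs the ranges were 0.874 to 0.891, 0.876 to 0.878 and 0.797 to 0.822. For circRNAs they were 0.647 to 0.670, 0.644 to 0.647 and 0.518 to 0.546, so libraries of 1 group were more alike than libraries of different groups in all 3 tables. These correlations run across transcripts, which are not independent, and are given with no test.

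The first question was how large the changes were in the early regenerate. Of the tested mRNAs 50.0% were called (limma on log2 values, Benjamini-Hochberg adjusted p under 0.05), with 22.0% higher and 28.0% lower at 3 dpa. For lncRNAs 18.9% were called, with 3.65% higher and 15.2% lower, and for circRNAs 3.83%, with 1.59% higher and 2.24% lower. The minimum value for testing differed between the tables, so these shares cannot be set against each other directly. At a mean signal of 1 to 3, 30.4% of lncRNAs and 37.3% of mRNAs were called. The shares were 48.9% and 53.1% at 3 to 10, and 40.0% and 67.4% at 10 to 30. The lncRNA lean depended on scaling. The 61 higher and 254 lower calls became 104 and 106 with TMM factors of the lncRNA table (a scaling that centres most transcripts). They became 112 and 104 with quantile normalization (which forces all libraries to the same distribution). TMM factors of the mRNA table and an equal mRNA plus lncRNA total each left 64 and 218. For circRNAs the 51 higher and 72 lower calls turned to 54 and 52 in edgeR, 30 and 13 in DESeq2 and 44 and 36 with a pseudocount (the constant added before the log) of 1 RPM. Without the trend setting of limma they numbered 40 and 52. The limma p-values of circRNAs rest mostly on a spread pooled over circRNAs of like level. At the median over circRNAs, the model gave no weight to the spread of the single circRNA. The libraries of both groups did not overlap for 59.2% of mRNAs, 36.4% of lncRNAs and 19.1% of circRNAs. With group labels set at random, 3 libraries without ties would lie wholly apart from the other 3 with a probability of 0.1. Of the called features 12277 of 12499 mRNAs, 313 of 315 lncRNAs and 115 of 123 circRNAs had groups that did not overlap.

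Most mRNA changes were modest. The middle 50% of tested mRNA changes lay between -0.53 and 0.39 on the log2 scale, with a median of -0.09 and a median SE of 0.16. Called mRNAs had a median log2 change of 0.83 where higher and -0.79 where lower. The medians of called lncRNAs were 1.67 and -1.58, and those of called circRNAs 2.43 and -2.25, with a median SE over all tested features of 0.52 and 0.69. These values use the pseudocount of each table (1 for mRNA, 0.1 for lncRNA, 1 read for circRNA) and cannot be set against each other directly. With a pseudocount of 1 for both, the median SE at a mean signal of 1 to 3 was 0.20 for lncRNAs and for mRNAs. Of the called mRNAs 37.4% of the higher and 32.6% of the lower ones had changed at least 2-fold. For lncRNAs these shares were 83.6% and 81.1%, which is 51 rises and 206 falls (3.05% and 12.3% of those tested). With the mRNA pseudocount of 1 the lncRNA shares were 31.0% and 35.4% (18 rises and 96 falls), near those of mRNAs, while at 0.1 for both the mRNA shares were 49.7% and 50.0%. The 2-fold lncRNA counts were 86 rises and 92 falls with TMM factors of the lncRNA table and turned to 91 and 86 with quantile normalization. With TMM factors of the mRNA table they were 57 and 177. The shares for circRNAs were 98.0% and 94.4%, which is 50 rises and 68 falls (1.56% and 2.12% of those tested).

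The far tail of the mRNA distribution leaned towards rises, although falls were more numerous among all calls. At least 2-fold changes numbered 2063 higher and 2279 lower mRNAs (8.25% and 9.12% of those tested), and at least 4-fold changes 409 and 267 (1.64% and 1.07%). Changes of at least 8-fold numbered 59 and 27, of at least 16-fold 21 and 8, and those of at least 32-fold 8 rises. Past 32-fold there were 47 rises and 19 falls at a pseudocount of 0.1, and 145 and 83 at 0.01. With TMM factors the 4-fold counts were 463 higher and 221 lower, with quantile normalization 420 and 243, and with an equal mRNA plus lncRNA total 460 and 225. The lean at 4-fold was small at a pseudocount of 0.1, with 914 and 898, and turned at 0.01, with 912 and 937, while at 8-fold both still gave more rises (313 and 236, then 355 and 275). The balance over all calls turned with scaling, to 6223 higher and 6041 lower with TMM factors and 6180 and 6045 with the equal total, but not with quantile normalization (5814 and 6192). The 2-fold balance turned under all 3 scalings, to 2346 and 1988 with TMM factors, 2172 and 2036 with quantile normalization and 2334 and 2003 with the equal total.

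The largest mRNA changes included many transcripts that were low in one group. The 8 transcripts past 32-fold had means of 35.9 to 1211 at 3 dpa and of 0 to 9.07 in intact fin. Among the 59 past 8-fold, the median of the transcript means was 32.6 at 3 dpa and 0.94 in intact fin, and 30 of the 59 had an intact mean under 1. The 27 mRNAs that fell at least 8-fold had a median of 1.93 at 3 dpa and 32.2 in intact fin, and 11 of them were under 1 at 3 dpa. Assembled transcripts made up 14.2% of the rises and 25.8% of the falls of at least 4-fold. They were 5145 of the 25001 tested. At 7 dpa 97.1% of the rises and 97.8% of the falls of at least 4-fold had a mean between those of the other groups. These transcripts were chosen for their distance at 3 dpa, so that share is a description.

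For lncRNAs the tail leaned the other way with values as deposited. At least 4-fold changes numbered 21 higher and 74 lower (1.26% and 4.43% of those tested). TMM factors of the lncRNA table itself, which moved its median log2 change from -0.45 to -0.05, gave 33 and 44, and quantile normalization gave 37 and 38, so the size of this lean depends on the scaling. Under TMM factors of the mRNA table it was 21 and 67. The 21 rises had a median of 1.01 at 3 dpa and 0.06 in intact fin, and 20 of them had an intact mean under 1. The 74 falls had a median of 0.26 at 3 dpa and 1.81 in intact fin. Of these falls 60 had a 3 dpa mean under 1. Assembled transcripts made up 37 of the 74 falls and 7 of the 21 rises, and were 480 of the 1671 lncRNAs tested. With a pseudocount of 1 the 4-fold lncRNA counts were 2 higher and 9 lower. CircRNA changes of at least 4-fold numbered 41 higher and 48 lower (1.28% and 1.49% of those tested), a balance that turned to 42 and 40 with quantile normalization and to 30 and 26 with a pseudocount of 1 RPM.

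**Figure D1:**
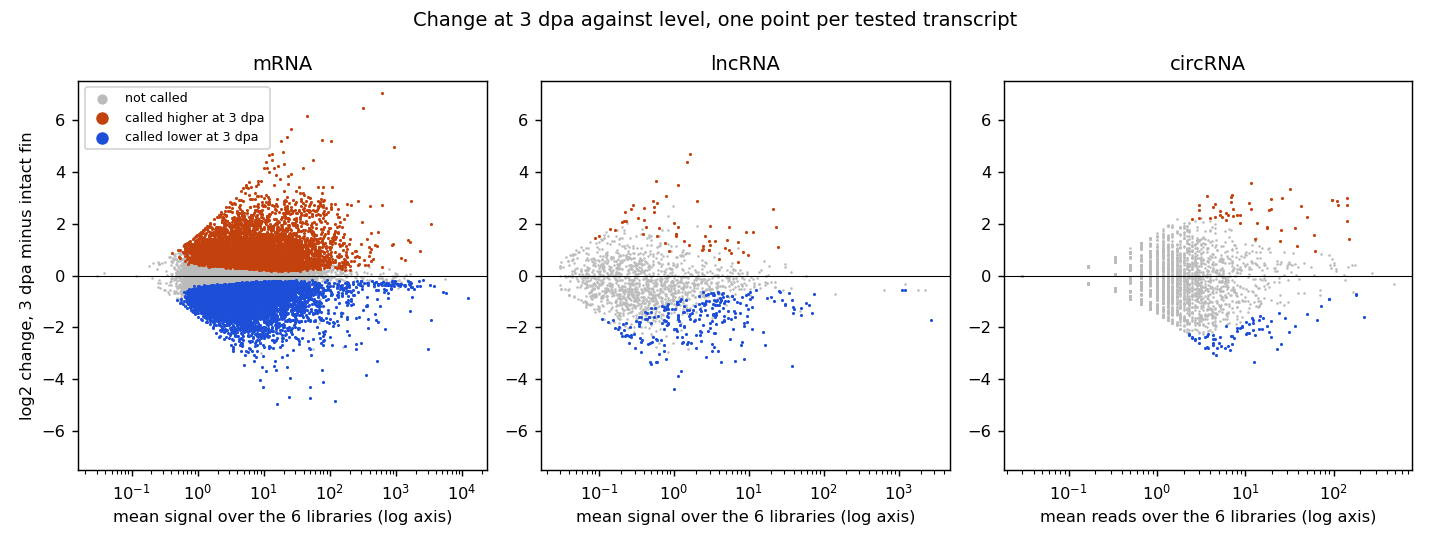
Log2 change (3 dpa minus intact fin, on the log2 scale with the pseudocount of each table) against the mean value over the 6 libraries (log axis; signal for mRNA and lncRNA, reads for circRNA; means under 0.03 drawn at 0.03), with each tested transcript as a point, coloured where called higher or lower. The slanted edges at the left come from the pseudocount, which bounds the change of low transcripts, and among mRNAs the highest points reach 7.04 and the lowest -4.95.

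The direction of mRNA changes varied with level, taken as the mean over the 6 libraries. Low mRNAs were called lower more often than higher, mRNAs of middle to high level were called higher more often, and the most abundant ones were again mostly lower. At a mean signal of 1 to 3, 12.9% of 7942 transcripts were called higher and 24.4% lower, and the median change was -0.16 on the log2 scale. At 3 to 10 the shares were 22.8% and 30.3% of 9019, and at 10 to 30 they were nearly equal, at 33.9% and 33.5% of 4476. At 30 to 100, 45.9% of 1285 were called higher and 28.2% lower, the median was 0.19 and the quartiles were -0.43 and 0.83. At 100 to 300 the shares were 41.9% and 34.7% of 265. Of the 163 transcripts at 300 or more, 30 were called higher (18.4%) and 92 lower (56.4%), with a median of -0.28 and quartiles of -0.41 and 0.03.

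The pattern over levels was checked under other settings. With levels taken from the 7 dpa libraries, which the contrast does not use, the shares were 44.6% higher and 27.8% lower at 30 to 100, and 18.4% and 57.1% at 300 or more. This check is weak. Of the called mRNAs with at least 2-fold changes, 96.2% of rises and 97.1% of falls had a 7 dpa mean between those of the other groups. The 7 dpa level therefore stays near the mean over the 6 libraries. With TMM factors the counts were 647 higher and 333 lower at 30 to 100, 31 and 70 at 300 or more, and 2355 and 2348 at 3 to 10, where the balance turned. Quantile normalization left 482 and 463 at 30 to 100 and 34 and 61 at 300 or more, and turned the balance at 10 to 30 (1431 and 1540) and at 100 to 300 (101 and 104). The error fell as the share of called transcripts rose with level: the median SE was 0.20 at a signal of 1 to 3 and 0.10 at 30 to 100. The median absolute log2 change was 0.44 and 0.63 in these bins, but 0.71 and 0.65 at a pseudocount of 0.1, so its order depended on the pseudocount. At 300 or more it was 0.37 with either.

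Annotated and assembled mRNAs were counted apart within bins of level. At 10 to 30, 35.4% of 3922 annotated transcripts were called higher and 31.7% lower, while of 554 assembled ones 23.5% were called higher and 45.7% lower. At 3 to 10 the shares were 23.9% and 28.9% of 7222 annotated and 18.0% and 36.3% of 1797 assembled transcripts. At 30 to 100 annotated transcripts had 46.8% higher and 27.3% lower of 1183, and assembled ones 35.3% and 39.2% of 102. These are counts over transcripts that can share reads, with no test of the difference.

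LncRNAs were set beside mRNAs of the same level with the same pseudocount of 1. At a signal of 3 to 10, 7.69% of 182 lncRNAs were called higher and 41.8% lower. Their median change was -0.45 on the log2 scale (median SE 0.17), while the mRNAs of this bin had a median of -0.08 and a median SE of 0.15. At 1 to 3 the medians were -0.36 for 283 lncRNAs and -0.16 for mRNAs, and at 10 to 30 they were -0.33 for 45 lncRNAs and -0.003 for mRNAs. Of the 20 lncRNAs at 30 to 100, 14 were called lower in limma, and the median was -1.08. At the lncRNA pseudocount of 0.1, TMM factors of the lncRNA table left 4 of these 20 lower and 2 higher (median -0.58), and quantile normalization 3 and 3. TMM factors of the mRNA table left 12 lower and 0 higher. At a pseudocount of 0.1 for both, the medians at 3 to 10 were -0.53 for lncRNAs and -0.09 for mRNAs. With TMM factors of the mRNA table the lncRNA median of this bin was -0.43, and with TMM factors of the lncRNA table -0.0016. The latter factors centre the lncRNA table by design, so a median near 0 there cannot show where the offset comes from. How the 2 tables were scaled to each other is not stated in the sources used here. Its part in the offset was not tested. Called falls in this bin numbered 75 as deposited, against 69 and 38 in those settings, and called rises 14, against 15 and 28.

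CircRNA calls lay among the circRNAs with more reads. All limma calls lay at a mean of at least 2 reads over the 6 libraries, while 1082 tested circRNAs had under 1 read and 1030 had 1 to 2. Of the 699 at 2 to 5 reads, 9 were called higher and 22 lower. At 10 to 30 reads 13 were higher (9.85%) and 24 lower (18.2%) of 132. Of the 61 at 30 reads or more, 15 were called higher (24.6%) and 10 lower (16.4%), and the median change was 0.34 on the log2 scale. In this top bin TMM factors gave 17 and 6, and quantile normalization turned it to 13 and 15. The median SE was 0.72 at 2 to 5 reads and 0.28 at 30 or more. Over all levels the 72 falls numbered 47 without 3 dpa replicate 1, 37 without intact fin replicate 1 and 46 without intact fin replicate 3.

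**Figure D2:**
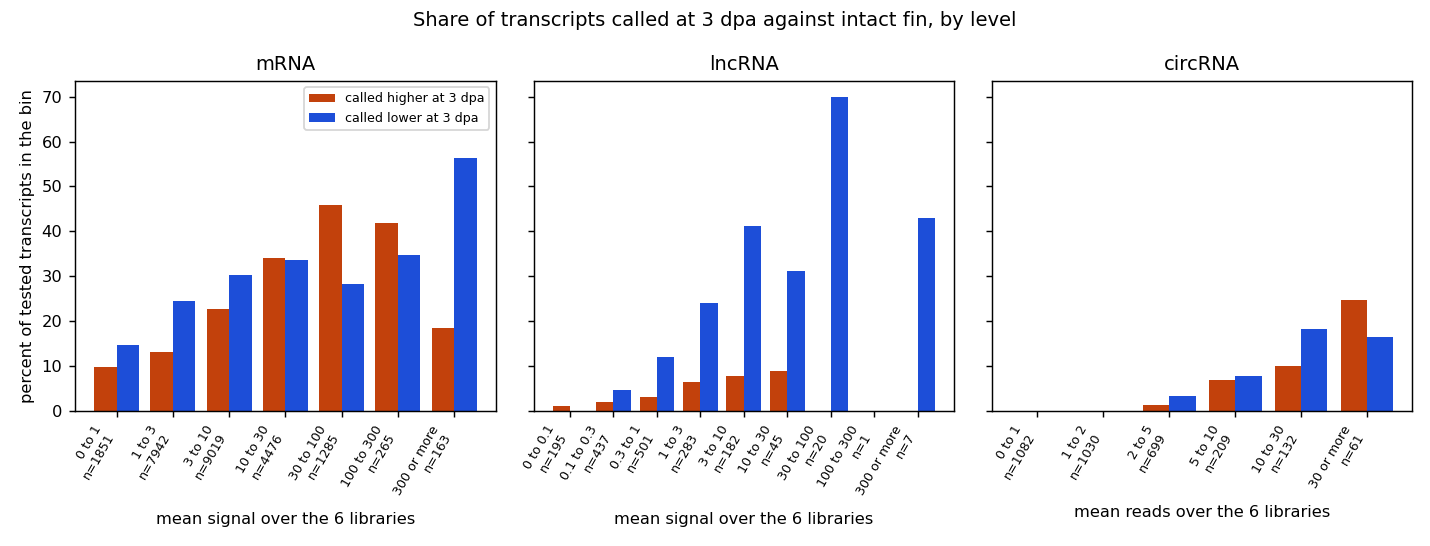
Percent of tested transcripts called higher and called lower at 3 dpa against intact fin (bars, limma adjusted p under 0.05) in bins of the mean value over the 6 libraries, with the number of transcripts under each bin. Among mRNAs falls lead at 1 to 3 (24.4% against 12.9% higher) and at 300 or more (56.4% against 18.4%), rises at 30 to 100 (45.9% against 28.2% lower). Among lncRNAs at 0.1 and above falls lead in each bin that holds calls with values as deposited. With TMM factors of the lncRNA table rises lead at 0.3 to 1 (22 against 21 falls), 1 to 3 (31 against 27) and 10 to 30 (9 against 4). Quantile normalization turns these bins and 0.1 to 0.3 (12 against 11 falls).

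The total of each library was spread over its ranked transcripts in ways that differed between the classes. The mRNA pool was more even at 3 dpa. Of the mRNA total 50% lay in 470, 438 and 475 transcripts in the 3 dpa libraries and in 302, 302 and 328 in intact fins, 461 ± 20.1 against 311 ± 15.0 (SD, n = 3 each; exact permutation p = 0.1, the smallest that 3 against 3 libraries can give). The 3 dpa libraries lay above every intact library. Ranks 1 to 10 held 10.4%, 10.2% and 10.1% at 3 dpa and 13.3%, 13.4% and 14.1% in intact fin. Ranks 101 to 1000 held 26.7%, 26.9% and 26.9% at 3 dpa and 24.4%, 24.0% and 24.0% in intact fin. Beyond rank 1000 the shares were 41.1%, 40.3% and 41.1% at 3 dpa against 38.4%, 38.6% and 39.2%. The 3 dpa libraries thus held less of the mRNA total in the top ranks and more in the ranks beyond 100.

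The circRNA pool moved the other way. At an equal 12070 reads per library, 80, 73 and 78 circRNAs held 50% of the reads at 3 dpa, and 182, 143 and 136 did in intact fin (exact permutation p = 0.1). Without thinning the numbers were 81, 72 and 78 against 186, 148 and 135. Ranks 1 to 10 overlapped between the groups, with 18.5%, 18.2% and 18.5% at 3 dpa and 14.2%, 17.1% and 18.4% in intact fin. The gap lay in ranks 11 to 100, which held 34.5%, 36.3% and 35.0% of the reads at 3 dpa and 26.6%, 27.9% and 27.4% in intact fin. Beyond rank 1000 the shares were 12.2%, 11.7% and 12.1% against 18.3%, 16.5% and 15.6%. At this depth 717 ± 9.0 circRNAs had a single read at 3 dpa and 849 ± 43.1 in intact fin, 1190 ± 15.1 against 1392 ± 51.3 had 2 to 9 reads, and 175 ± 9.0 against 196 ± 12.3 had 10 or more (SD, n = 3 each). The 7 dpa libraries had 120 to 135 circRNAs for 50% of the reads, between the other groups.

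The lncRNA pool was dominated by a few transcripts in both groups. Of its total 50% lay in 5, 4 and 4 lncRNAs at 3 dpa and in 4, 4 and 3 in intact fin. Ranks 1 to 10 held 72.9%, 77.0% and 76.5% at 3 dpa and 75.8%, 77.9% and 79.9% in intact fin, and the groups overlapped (exact permutation p = 0.3). Per 1000 units of mRNA total, the lncRNA total was 23.6, 29.1 and 27.5 at 3 dpa and 36.8, 42.9 and 46.0 in intact fin (exact permutation p = 0.1).

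**Figure D3:**
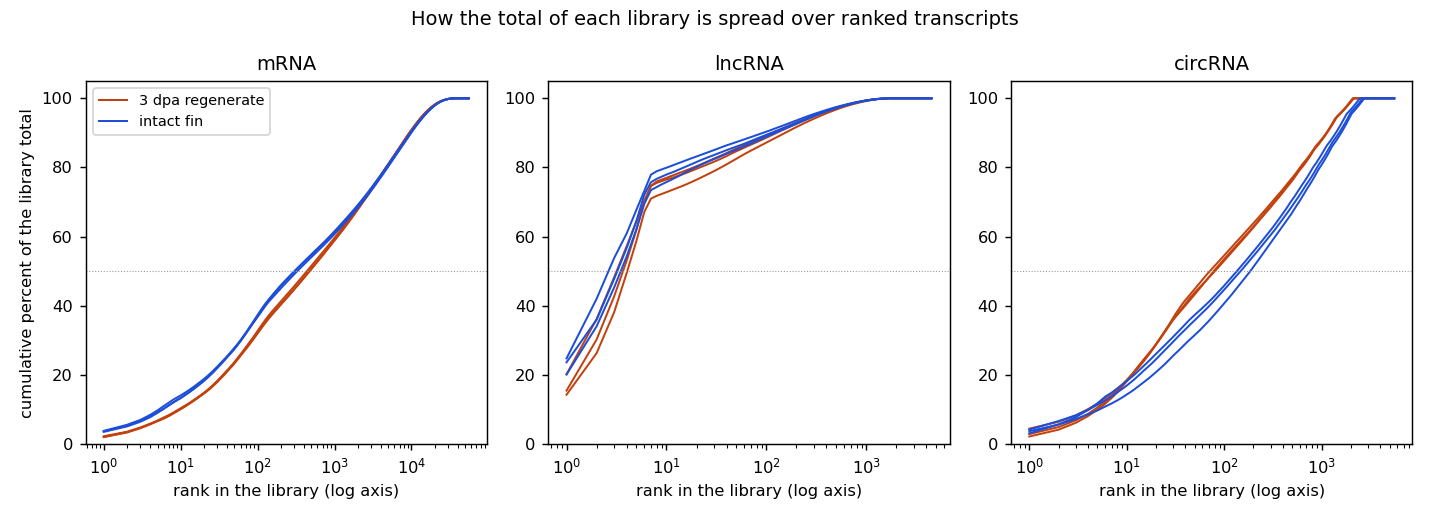
Cumulative percent of the library total against rank (log axis) for each 3 dpa and intact fin library, as a line each, with a dotted line at 50%; circRNA lines use all reads. The mRNA lines of 3 dpa run below those of intact fin in the top ranks, the circRNA lines of 3 dpa run above them from about rank 11 on, and the lncRNA lines overlap.

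On the linear scale, gains and losses were concentrated to different degrees. Summed over transcripts, the differences between group means came to a gain of 91905 and a loss of 111925 in mRNA signal, against mRNA totals of 413457 at 3 dpa and 433478 in intact fin. Of the mRNA gain 50% came from 294 transcripts, and 50% of the loss from 129. The first 10 transcripts held 17.3% of the gain and 22.8% of the loss. Among lncRNAs 3 transcripts made up 50% of the loss of 7455, and 1 alone held 39.1% of it. The lncRNA gain was 340, spread so that 20 lncRNAs made up 50%. The lncRNA totals were 11033 at 3 dpa and 18149 in intact fin. Gain and loss of a table differ by the change in its total, which depends on the deposited scaling. No other scaling was tried for these sums. Of the circRNA gain 50% came from 52 circRNAs, and 50% of the loss from 258, with gain and loss equal by design. These sums take in every difference, called or not. Called circRNAs held 43.3% of the circRNA gain and 25.8% of the loss, so most of that loss lay in circRNAs that were not called. The shares held by called transcripts were 90.7% and 86.9% for mRNAs and 58.0% and 67.4% for lncRNAs. The mRNAs called higher held 37.2%, 36.0% and 38.2% of the total at 3 dpa and 16.6%, 16.5% and 15.5% in intact fin. Those called lower held 34.1%, 35.0% and 33.1% at 3 dpa and 54.4%, 54.9% and 55.5% in intact fin. The circRNAs called higher held 20.3%, 21.9% and 21.3% of the reads at 3 dpa and 4.36%, 4.73% and 3.70% in intact fin. These sets were chosen on the same libraries, so their shares are descriptions.

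Transcripts at the top of these linear changes were followed library by library. They were picked among calls whose groups did not overlap, so that separation was set by the choice. ENSDART00000009393 had the largest gain in mRNA signal. It stood at 5408, 5139 and 5859 at 3 dpa, against 1460, 1589 and 1097 in intact fin (log2 change 2.00, SE 0.12, limma adjusted p = 3.62e-06). Its rank in the library was 2 to 3 at 3 dpa against 26 to 44 in intact fin. ENSDART00000000221 had the largest loss, with 8611, 9442 and 8290 at 3 dpa and 15632, 16214 and 16261 in intact fin (log2 change -0.87, SE 0.06, limma adjusted p = 5.65e-06). It still ranked first in all 6 libraries, so quantile normalization, which gives the same value to the same rank, left it no change.

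Among lncRNAs ENSDART00000176275 had the largest gain, with 38.6, 34.1 and 36.0 at 3 dpa and 8.29, 4.66 and 5.63 in intact fin (log2 change 2.57, SE 0.20, limma adjusted p = 3.37e-05). Its log2 change was 3.10 with TMM factors of the lncRNA table and 3.34 with quantile normalization. The assembled TCONS_00025683 had the largest loss, with 1181, 1456 and 1155 at 3 dpa and 3277, 4399 and 4851 in intact fin (log2 change -1.71, SE 0.18, limma adjusted p = 0.000121). The log2 change was -1.18 with TMM factors of the lncRNA table and -0.65 with quantile normalization. It held 11.5% of the lncRNA total at 3 dpa and 23.0% in intact fin, where it ranked first in each library.

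Among circRNAs novel_circ_001964 gained most, with 224, 259 and 245 reads at 3 dpa and 34, 74 and 20 in intact fin. Its share was 19226 ± 1093 RPM at 3 dpa and 2691 ± 1658 RPM in intact fin (SD, n = 3 each; log2 change 2.97, SE 0.25, limma adjusted p = 7.14e-28, edgeR adjusted p = 2.38e-16). The limma p rests on a spread pooled over circRNAs of like level, since the model gave no weight to the spread of single circRNAs. novel_circ_000913 lost most, with 119, 114 and 55 reads at 3 dpa and 254, 404 and 380 in intact fin (log2 change -1.59, SE 0.21, limma adjusted p = 3.04e-11, edgeR adjusted p = 0.000109). Its call was lost without the trend setting (limma adjusted p = 0.157) and with a pseudocount of 1 RPM (limma adjusted p = 0.124).

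**Figure D4:**
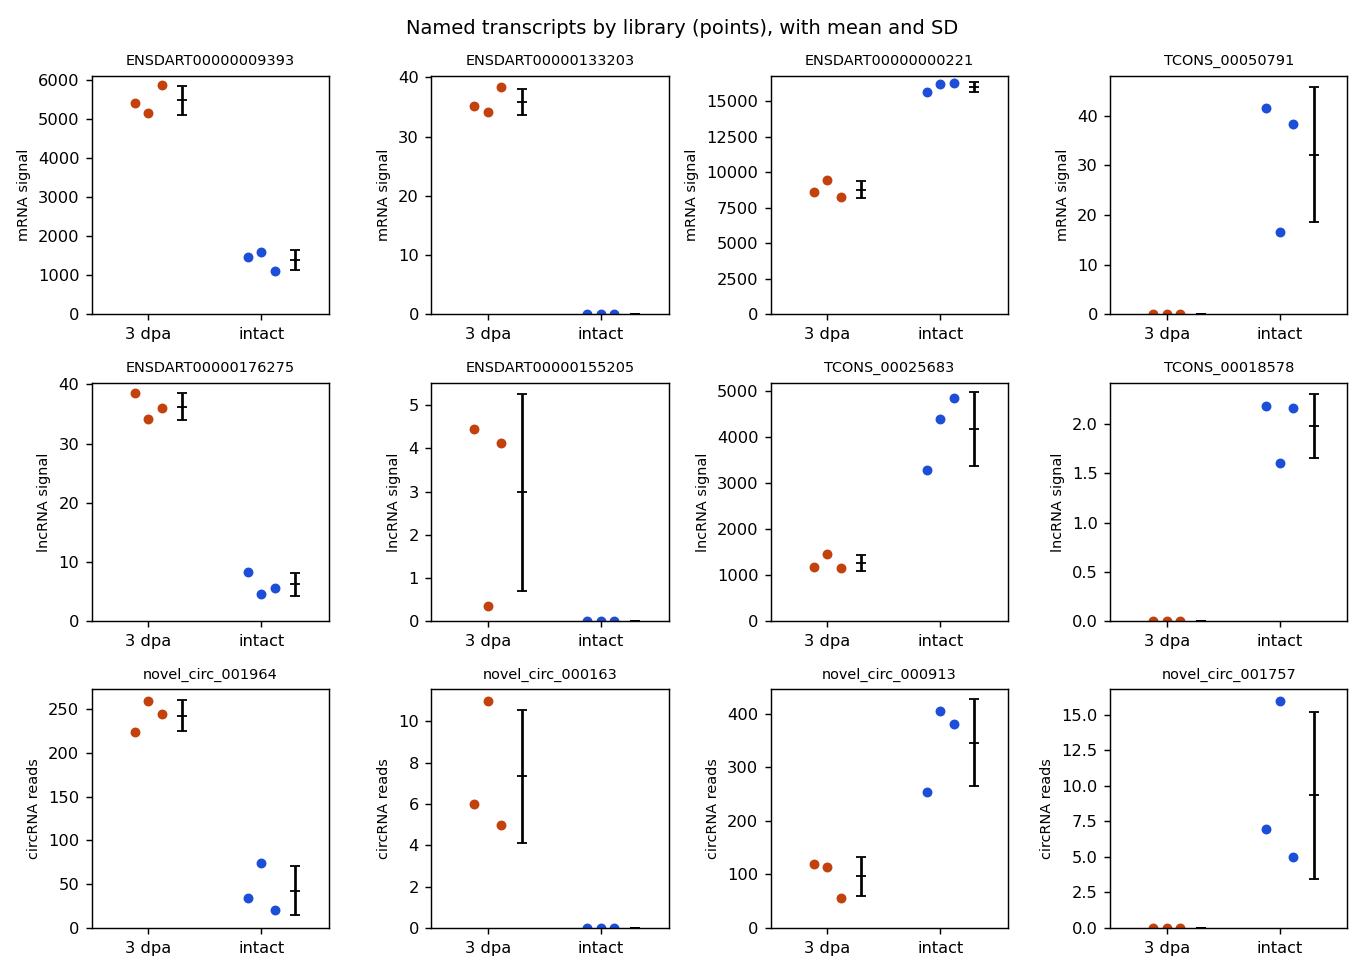
Values of the 12 named transcripts in each 3 dpa and intact fin library (points), with mean and SD beside them; rows are mRNA signal, lncRNA signal and circRNA reads, on linear axes from 0. In every panel the 3 libraries of one group lie above the 3 of the other, which the rule for naming required.

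Transcripts that appeared or disappeared were counted as those listed at 0 in all 3 libraries of one group and at a minimum value in all 3 of the other. For mRNAs, with a minimum signal of 1, 42 were at 0 in intact fin and present at 3 dpa, and 16 were at 0 at 3 dpa and present in intact fin. These are 0.213% of the 19729 mRNAs at the minimum in all 3 dpa libraries and 0.0781% of the 20485 in all intact libraries. In limma 41 of the 42 and 16 of the 16 were called. They were chosen on the same libraries that limma compared, which favours a call, and 50.0% of all tested mRNAs were called. A listed 0 need not mean absence, since values per transcript are estimates from reads that transcripts can share. Within a single group, 339 mRNAs at 3 dpa and 430 in intact fin were at 0 in 1 library while the others held at least 1. With values under 0.1 allowed for 0 the counts were 50 and 18.

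Most mRNAs of this kind were low. Those that appeared had a median mean signal of 2.36 at 3 dpa, and those that disappeared one of 2.29 in intact fin. At a minimum of 10 the counts were 2 and 2, with 5 and 4 mRNAs at 0 in only 1 library of the same group. Assembled transcripts made up 10 of the 42 and 5 of the 16. At 7 dpa 8 of the 42 had a signal of at least 1 in all libraries and 1 was at 0 in all. Of the 16, 3 were at 1 or more in all 7 dpa libraries and 4 were at 0 in all.

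The highest of the appearing mRNAs was ENSDART00000133203, with 35.2, 34.1 and 38.3 at 3 dpa and a listed 0 in each intact library (limma adjusted p = 3.28e-06). The 3 dpa values lay close together, and at 7 dpa it had 8.76, 8.29 and 2.74. The highest of the disappearing ones was the assembled TCONS_00050791, listed at 0 in all 3 dpa libraries, with 41.6, 16.6 and 38.3 in intact fin (limma adjusted p = 0.000406). Its intact values were uneven, with replicate 2 the lowest.

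**Figure D5:**
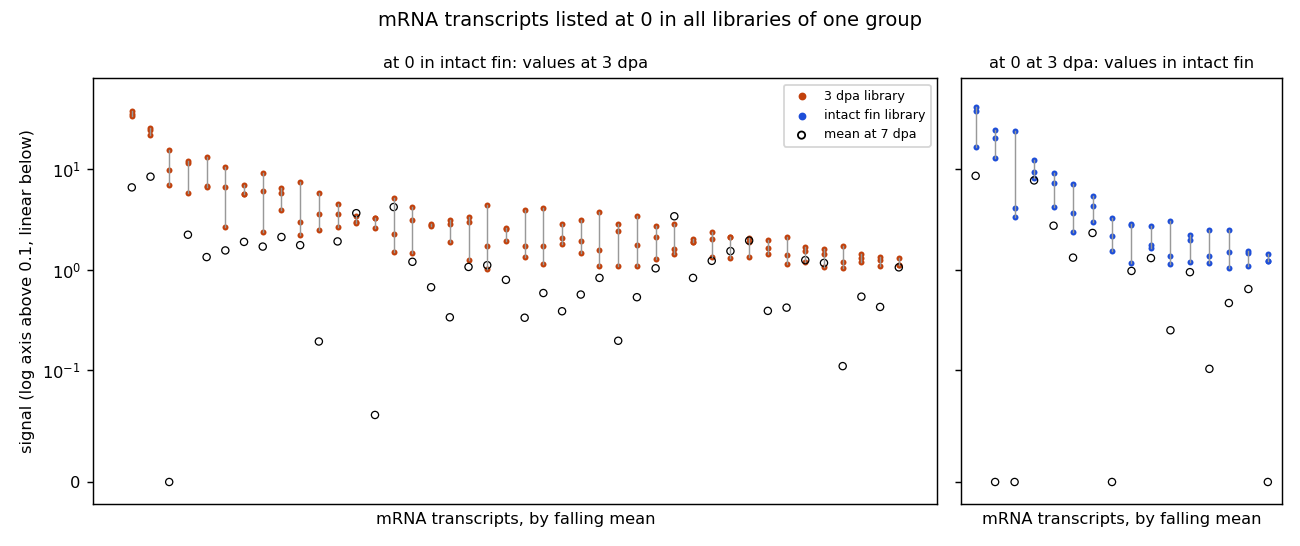
Signal (log axis above 0.1, linear below) of the 42 mRNAs listed at 0 in all intact fin libraries, by 3 dpa library, and of the 16 listed at 0 in all 3 dpa libraries, by intact fin library, ordered by mean; open circles are 7 dpa means. Most values lie under 10 in both panels, and libraries spread widely for many transcripts.

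For lncRNAs, with a minimum signal of 0.1, 10 appeared and 21 disappeared at 3 dpa, of which 8 and 16 were called in limma. The choice used the same libraries, and of all tested lncRNAs 18.9% were called. The 10 and 21 were 1.01% and 1.89% of the lncRNAs at the minimum in all libraries of the group that held them. Zeros within a group were far more frequent: 212 lncRNAs at 3 dpa and 228 in intact fin were at 0 in 1 library with the others at 0.1 or more. ENSDART00000155205 reached 4.46, 0.36 and 4.13 at 3 dpa and was listed at 0 in intact fin (limma adjusted p = 0.00577), with replicate 2 far below the others. TCONS_00018578 was listed at 0 at 3 dpa and had 2.18, 1.61 and 2.16 in intact fin (limma adjusted p = 0.00379), where its values were alike.

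For circRNAs, with a minimum of 1 read, 44 appeared and 134 disappeared at 3 dpa, but the 3 dpa libraries also held fewer circRNA reads. These counts were not repeated at an equal number of reads, so the part of read number in them was not tested. The 44 were 4.73% of the 930 circRNAs with a read in all 3 dpa libraries. The 134 were 10.7% of the 1252 with a read in all intact libraries. In limma 2 of the 44 and 13 of the 134 were called, beside 3.83% of all tested circRNAs. In a single group, 920 circRNAs at 3 dpa and 1162 in intact fin had no read in 1 library and at least 1 in each of the others, so at this depth a 0 is common among low circRNAs. With a minimum of 3 reads, 2 appeared and 17 disappeared, and 1 and 12 of them were called. They were 0.597% and 3.22% of the circRNAs at that minimum in all libraries of the group that held them. novel_circ_000163 had 6, 11 and 5 reads at 3 dpa and 0 in all intact libraries. With a floor of 3 reads for the summed intact libraries, and the 3 dpa reads taken as counted, it was 9.04-fold higher at 3 dpa (limma adjusted p = 0.00206, edgeR adjusted p = 0.00226). Its limma call was lost with a pseudocount of 1 RPM (limma adjusted p = 0.102). novel_circ_001757 had 0 reads at 3 dpa and 7, 16 and 5 in intact fin, and was 7.57-fold lower at 3 dpa on the same terms (limma adjusted p = 0.00106, edgeR adjusted p = 0.00159). The floor covers counting error in the group at 0 only, so these folds are not lower bounds.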

How the data were processed

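Libraries were made from total RNA of 9 caudal fin samples by a dUTP protocol with random primers, per the labels. As tools, cutadapt, TopHat2 2.0.3.12, RSEM and edgeR are listed in the submitters' processing notes, without their roles, beside the human build hg38. The zebrafish build and the circRNA caller are not given in the sources used here. The authors deposited a signal per mRNA or lncRNA transcript, with 2 decimals and unknown depth. For circRNAs the authors deposited RPM, and 100% of these values were whole multiples of the value of 1 read (61.5 to 82.9 RPM) within 0.001 reads, which gave the reads.

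limma 3.58.1 (R 4.3.3; trend, robust) was fitted to log2(value + pseudocount) of each table over 9 libraries in 3 groups, without covariates. Pseudocounts were 1 for mRNA, 0.1 for lncRNA and 73.8 RPM, the mean value of 1 read, for circRNA, so that log2 changes of low transcripts are understated. A transcript was tested if 3 or more of the 9 libraries, of any group, reached 1 (mRNA), 0.1 (lncRNA) or any read (circRNA). P-values are two-sided, with Benjamini-Hochberg adjustment within a table. Alternatives for circRNA reads were edgeR 4.0.16 and DESeq2 1.42.0. Values per library were compared by exact permutation (two-sided; Python 3.11.15), for circRNAs after thinning to 12070 reads. The fits were tested on simulated log2 values with normal noise, which held no differences in depth or scaling between libraries. Named per table were the largest linear rise and fall among calls whose groups did not overlap, and, for each group, the called transcript listed at 0 there with the highest mean in the other group. The comparison, bins, named rule and alternatives were chosen with earlier results of these data known. Scalings for bins and 4-fold counts, and mRNA factors for lncRNAs, were added after seeing the data. Marker lists were not used, since no symbol matched.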

Additional observations from a re-analysis of the deposited data

Results flagged for a closer look

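For 8 of the 12 named transcripts the log2 change against intact fin was not the same at 7 dpa as at 3 dpa, by the limma test of that difference over the whole table. They were named for their 3 dpa values, so the choice is not independent of the 3 dpa change. A choice of extreme values at 3 dpa favours a difference back towards intact fin. The share of all tested transcripts with such a difference is not given here. The 8 can therefore not be set against it, and are no sign of a trait particular to these transcripts. Subtracting the 3 dpa change from the 7 dpa change gave -0.53 for the mRNA ENSDART00000009393 (limma adjusted p = 0.0158). The mRNA ENSDART00000133203 had a difference of -2.40 (limma adjusted p = 0.00113). ENSDART00000000221 moved the other way, by 0.67 (limma adjusted p = 0.000263), as did the assembled mRNA TCONS_00050791, by 2.68 (limma adjusted p = 0.0262). The lncRNA TCONS_00025683 had 0.93 (limma adjusted p = 0.0233). Among circRNAs the difference was -1.23 for novel_circ_001964 (limma adjusted p = 0.0011), -2.75 for novel_circ_000163 (limma adjusted p = 0.0359) and 1.30 for novel_circ_000913 (limma adjusted p = 3.71e-06).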

How the results depend on the processing

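Calls are given as higher, then lower, at 3 dpa. A stricter filter (12567 mRNAs tested) left 3983 and 4186 mRNA calls. TMM factors of the lncRNA table gave 104 and 106 lncRNA calls, and quantile normalization 112 and 104, while mRNA factors gave 64 and 218. CircRNA calls numbered 30 and 13 with DESeq2 (971 tested) and 44 and 36 with a pseudocount of 1 RPM, and edgeR gave 54 and 52. Calls of at least 4-fold numbered 914 and 898 (pseudocount 0.1) or 912 and 937 (0.01) for mRNAs. For lncRNAs they numbered 33 and 44 (TMM), 37 and 38 (quantile) or 2 and 9 (pseudocount 1), and for circRNAs 30 and 26 (1 RPM). The median log2 change of mRNAs at 30 to 100 was 0.28 with TMM factors, 0.012 with quantile normalization and 0.28 with an equal total. At 300 or more these gave -0.18, -0.12 and -0.19. For lncRNAs at 3 to 10 it was -0.42 with 7 dpa levels, -0.0016 with TMM, -0.042 with quantile, -0.44 with an equal total, -0.43 with mRNA factors and -0.45 with a pseudocount of 1. At the higher minimum, appearing and disappearing transcripts numbered 2 and 2 (mRNA), 1 and 1 (lncRNA) and 2 and 17 (circRNA). ENSDART00000000221 had a log2 change of 7.11e-15 with quantile normalization, by its equal rank. Leaving out 1 library gave 4716 to 5515 and 5841 to 6944 mRNA calls, 46 to 63 and 177 to 250 lncRNA calls, and 39 to 51 and 37 to 75 circRNA calls. It gave 48 to 72 appearing and 33 to 40 disappearing mRNAs, 18 to 25 and 29 to 44 lncRNAs, and 67 to 106 and 200 to 270 circRNAs, since fewer libraries then had to agree. With a replicate block calls were 5312 and 6588 (mRNA), 58 and 234 (lncRNA) and 49 and 67 (circRNA). Same-numbered libraries did not deviate together (r from -0.019 to 0.050), and 1, 2 and 2 of the 3 dpa libraries correlated best with their own number. Other causes of these shifts were not tested. Of the values checked for the main results 69 moved past their limits and 190 stayed within them. For counts the limit held for each count alone, so mRNA calls stayed within it although their balance turned with TMM factors. For values per library only the sign had to hold. CircRNA calls were not tested at another depth, and the depth of the other tables is unknown.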
